A study of Mus musculus with 6 samples.

Results

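Interferon responsive genes are the genes that cells switch on after sensing interferon or viral nucleic acid. They were described here in cultured mouse keratinocytes that lacked the transcription factor gene Ovol1, or both Ovol1 and Ovol2. The set was given as 40 gene symbols. Of these, 36 had a probe set that the platform annotation assigns to 1 gene, among 19938 genes tested in all, and the brightest such probe set was used for each. Isg15, Gbp2 and Igtp lie only on probe sets that the annotation assigns to several genes. Ifi44 is not listed in the annotation used here, and no value is given for these 4 genes.

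The 6 Affymetrix arrays fall into 3 groups of 2, labelled Control, Ovol1 KO and Ovol1/2 DKO (double knockout), and each array carried RNA from 2 pooled mice. Control mice were Ovol2flox/+ and carried, in addition, either the Ovol1+/- genotype or K14-Cre, a Cre recombinase active in basal keratinocytes, and the labels do not say which array held which. Ovol1 KO mice were Ovol1-/-, and Ovol1/2 DKO mice were Ovol2flox/-;K14-Cre on top of Ovol1-/-. Complete Ovol2 loss in the latter is limited to cells in which K14-Cre acted, whereas all their cells carry the null allele. All groups shared the C57BL/6 strain, embryonic age E18.5, a female sex label, 2 to 5 days of culture and a further 3 to 5 days with calcium, which drives keratinocytes to differentiate. Values are log2(intensity + 16) after quantile normalization, and limma was run on the whole table of genes. A difference counts as called where its Benjamini-Hochberg adjusted p is under 0.05. The number of arrays limits the precision.

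As background, type I and type III interferons bind surface receptors that activate JAK kinases, and a factor that contains Stat2 and Irf9 then binds interferon-stimulated response elements in promoters. Type II interferon acts mainly through gamma-activated sites. Keratinocytes are a barrier tissue and hold a low resting expression of many of these genes, in part through Irf1 and basal interferon signalling.

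The promoters of the genes on which the results turn are shown first, with those of Ifit1 and Isg15 as well-known interferon targets. Each is 300 bases, from 250 before to 50 after an annotated RefSeq start (build GRCm38.p6), written 5′ to 3′ on the gene's strand. Capitals mark matches, on either strand, to the core of the interferon-stimulated response element (GAAA, any 2 bases, GAAA) or to TTCNNNGAA, the gamma-activated site. Rsad2 lies at chr12:26456403-26456702 on the minus strand, Ifit2 has a pair of annotated starts at chr19:34550444-34550743 and chr19:34550838-34551137 on the plus strand, Ifit1 lies at chr19:34640639-34640938 on the plus strand and Isg15 at chr4:156200769-156201068 on the minus strand.
Rsad2: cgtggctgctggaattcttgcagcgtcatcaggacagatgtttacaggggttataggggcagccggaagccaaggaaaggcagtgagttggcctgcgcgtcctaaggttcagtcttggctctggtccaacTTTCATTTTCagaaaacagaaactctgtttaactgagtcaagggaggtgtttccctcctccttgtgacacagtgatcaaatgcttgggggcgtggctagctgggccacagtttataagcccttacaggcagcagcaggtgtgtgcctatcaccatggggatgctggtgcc
Ifit2, upstream start: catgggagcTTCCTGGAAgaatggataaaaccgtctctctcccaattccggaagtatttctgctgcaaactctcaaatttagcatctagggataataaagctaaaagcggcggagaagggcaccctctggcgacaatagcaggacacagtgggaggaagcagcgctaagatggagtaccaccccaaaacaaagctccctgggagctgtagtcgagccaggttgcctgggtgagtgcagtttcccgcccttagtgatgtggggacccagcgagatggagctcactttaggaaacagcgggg
Ifit2, downstream start: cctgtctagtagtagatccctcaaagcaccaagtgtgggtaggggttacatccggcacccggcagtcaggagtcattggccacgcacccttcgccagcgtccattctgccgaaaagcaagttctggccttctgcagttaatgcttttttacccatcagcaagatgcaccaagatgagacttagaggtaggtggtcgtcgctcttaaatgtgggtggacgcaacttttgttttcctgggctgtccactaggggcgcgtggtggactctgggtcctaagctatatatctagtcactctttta
Ifit1: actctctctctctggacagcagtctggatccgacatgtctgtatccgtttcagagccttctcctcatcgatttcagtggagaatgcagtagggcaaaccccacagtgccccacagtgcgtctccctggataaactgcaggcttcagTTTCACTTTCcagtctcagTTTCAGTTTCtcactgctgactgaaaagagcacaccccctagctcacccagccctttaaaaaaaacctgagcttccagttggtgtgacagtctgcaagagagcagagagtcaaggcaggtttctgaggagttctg
Isg15: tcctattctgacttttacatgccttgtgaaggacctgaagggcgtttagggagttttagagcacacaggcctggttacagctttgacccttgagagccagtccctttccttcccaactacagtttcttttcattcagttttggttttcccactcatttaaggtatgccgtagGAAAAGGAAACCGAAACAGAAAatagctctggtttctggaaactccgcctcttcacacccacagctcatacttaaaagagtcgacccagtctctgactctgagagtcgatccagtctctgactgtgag

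The response element core was found once in the Rsad2 window, 120 bases before the start, and 2 times in that of Ifit1. In the Isg15 window 3 overlapping matches form 1 run. Neither Ifit2 window holds these letters, and the upstream one has a gamma-activated site match. Promoter windows were found for 30 of the 40 genes, as 34 windows, of which 47.1% held the response element core, against 3.44% of 32851 windows in the table. For TTCNNNGAA the shares were 23.5% and 8.3%, and in 1 of the 34 windows matches to these motifs overlapped. The letters CCGTTA, the core bound by Ovol proteins, were found in 1 of the 34 windows, that of Ddx58 (2.94%, against 2.76% of all windows). A match is a description of the sequence only, and no match says only that these letters are absent from this window.

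In the double knockout, 2 of the 36 measured genes fell against control and 0 rose. They were Rsad2, which encodes viperin, an enzyme that makes a chain-terminating nucleotide against viral polymerases, and Ifit2, which encodes a tetratricopeptide protein that restricts viral translation. The other 34 did not pass, and the median log2 difference of the 36 was -0.00 (all genes 0.02). Over all genes tested 2.26% were called lower and 0.943% higher, and 2 of 36 is 5.56%, so the pair is described for itself and not as a property of the list. Sex-linked genes separated control from DKO and split the Ovol1 KO group: Xist lay between 4.59 and 4.71 on both control arrays and Ovol1 KO 1, and between 11.97 and 12.26 on Ovol1 KO 2 and both DKO arrays, while the Y-linked gene Kdm5d was high on the first 3 and low on the last 3. The female label, given for all 6 arrays, thus does not match the expression on both control arrays and Ovol1 KO 1. Its part in the results was not tested, but values within 1 side are given below.

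**Figure D1:**
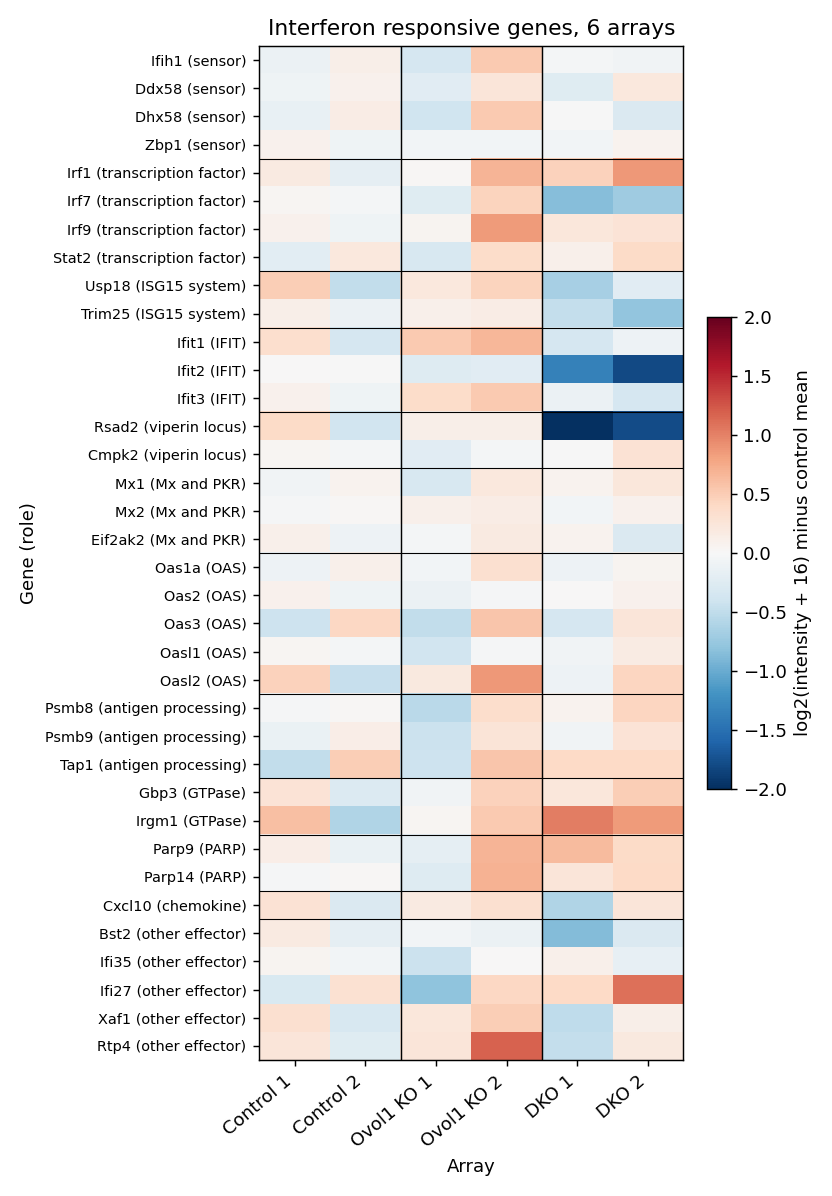
Level of each of the 36 genes (rows, with their role) on the 6 arrays (columns), as log2(intensity + 16) minus the control mean; blue is below and red above it. Rsad2 and Ifit2 are the darkest blue cells in both DKO arrays, while most rows of Ovol1 KO 2 are red beside a bluer Ovol1 KO 1.

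Rsad2 had deposited intensities of 255.5 and 152.4 in the control arrays, 231.1 and 212.2 in the Ovol1 KO arrays, and 32.7 and 51.3 in the DKO arrays. On the log2 scale it lay at 8.13 and 7.38, 7.87 and 7.87, and 5.64 and 5.97. Both DKO arrays were below the other 4, with a wide gap. The log2 fold change of Rsad2 in DKO against control was -1.95 (SE 0.27, limma adjusted p = 0.015), from a mean of 7.75 ± 0.54 (SD, n = 2) to 5.80 ± 0.23.

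Ifit2 had deposited intensities of 131.5 and 140.7 in control, 121.9 and 110.8 in Ovol1 KO, and 41.6 and 29.8 in DKO. Its log2 values were 7.27 on both control arrays, 7.01 and 7.04 in Ovol1 KO, and 5.91 and 5.46 in DKO. The groups did not overlap, and DKO again stood apart from the other 4 arrays. The log2 fold change of Ifit2 in DKO against control was -1.58 (SE 0.18, limma adjusted p = 0.0081), to 5.68 ± 0.32 (SD, n = 2). Over all 6 arrays, 10% of log2 values lay below 5.996, a limit above all 4 DKO values of Rsad2 and Ifit2. The table has no detection call, so these values were not separated from background, and the size of the falls depends on the offset. With an offset of 1 the log2 differences were -2.30 for Rsad2 and -1.95 for Ifit2, and with an offset of 64 they were -1.35 and -1.02, each still called. A larger offset shrinks the log2 differences of dim genes, and the size of the underlying change was not measured.

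Against Ovol1 KO, a comparison between groups that both lack Ovol1 and differ in Ovol2 and K14-Cre, Rsad2 and Ifit2 again fell and 0 of 36 rose (1.49% of all genes were called lower and 0.657% higher). The log2 fold change was -2.06 for Rsad2 (SE 0.27, limma adjusted p = 0.014) and -1.34 for Ifit2 (SE 0.18, adjusted p = 0.018). This comparison shares its DKO arrays with the one against control. Setting DKO only against Ovol1 KO 2, the array on its side in Xist, gave -2.07 for Rsad2 and -1.35 for Ifit2, neither called (adjusted p = 0.13 for both). With the Xist level as a covariate, the differences against control were -1.97 and -1.60, with SEs of 0.50 and 0.33 and adjusted p = 0.53 and 0.39. The sizes stayed close to those above while the calls were lost. Xist was low on both control and high on both DKO arrays, so sex and genotype cannot be told apart between these groups. The covariate was set almost wholly by the Ovol1 KO arrays, whose gaps were 0.00 for Rsad2 and 0.03 for Ifit2. The sizes could therefore barely move, and they do not show what part sex had. Against control, Rsad2 also lost its call without DKO 1 (-1.80, adjusted p = 0.086) or DKO 2 (-2.11, adjusted p = 0.056), and Ifit2 kept its call with each array left out in turn. Against Ovol1 KO, the call of Rsad2 was lost when any 1 of the 4 arrays compared was left out (-2.23 to -1.91), and that of Ifit2 when Ovol1 KO 1, Ovol1 KO 2 or DKO 2 was (-1.36 to -1.11).

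**Figure D2:**
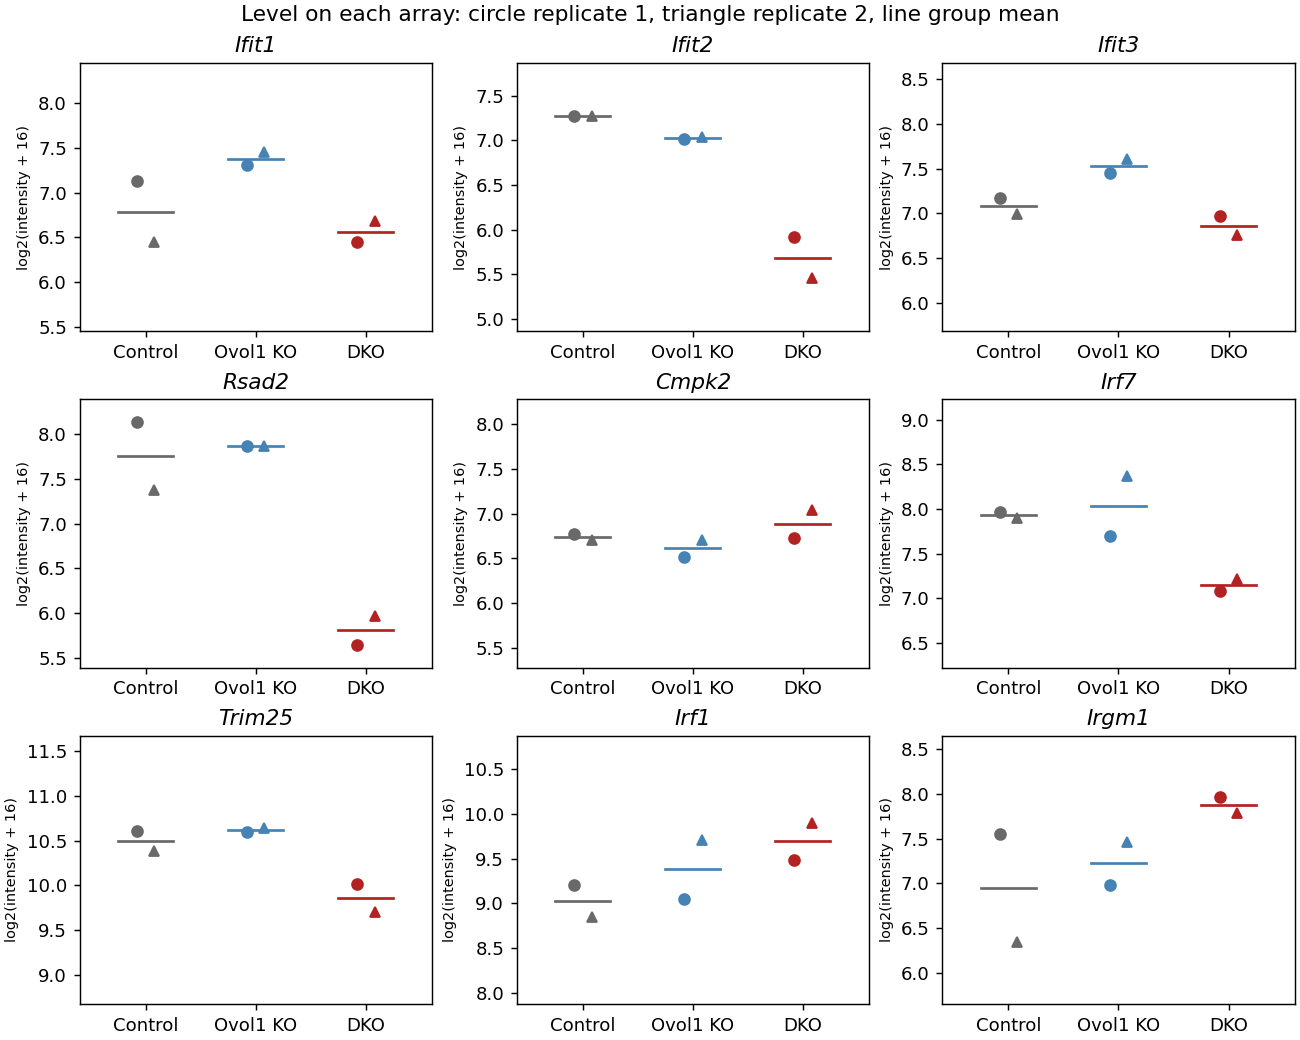
Level of 9 genes on each array, as log2(intensity + 16), with equal spans on every y axis; circles are replicate 1, triangles replicate 2 and lines group means. Rsad2 and Ifit2 drop below the other 4 arrays in DKO, whereas Cmpk2, Ifit1 and Ifit3 stay close to their control levels.

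Against control, the genomic neighbours of both genes had smaller differences. Cmpk2, a mitochondrial nucleotide kinase gene, is next to Rsad2 with 0 protein-coding genes between them in the RefSeq order. It lay at 6.77 and 6.71 in control, 6.52 and 6.70 in Ovol1 KO, and 6.73 and 7.04 in DKO. Control and DKO overlapped, and the log2 difference was 0.14 (SE 0.17, limma adjusted p = 0.83, 95% interval -0.26 to 0.54), an interval that does not reach the one of Rsad2 (-2.58 to -1.32).

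Ifit3, which encodes a partner of the other IFIT proteins, is the direct neighbour of Ifit2. It lay at 7.18 and 6.99 in control, 7.46 and 7.60 in Ovol1 KO, and 6.97 and 6.76 in DKO. Both DKO arrays were just below the control arrays, and the log2 difference was -0.22 (SE 0.17, limma adjusted p = 0.66). Its 95% interval of -0.62 to 0.18 lay outside that of Ifit2 (-2.02 to -1.15). Ifit1, which binds viral RNA lacking a host cap, lay at 7.13 and 6.45 in control, 7.31 and 7.45 in Ovol1 KO, and 6.45 and 6.68 in DKO. Control and DKO overlapped, and the log2 difference was -0.22 (SE 0.24, adjusted p = 0.80). Both genes were higher on each Ovol1 KO array than on the control arrays, by 0.59 for Ifit1 and 0.44 for Ifit3, with limma adjusted p = 1 for both. Against Ovol1 KO, both DKO arrays were below both Ovol1 KO arrays in each gene. The log2 difference was -0.82 for Ifit1 (95% interval -1.39 to -0.24, limma adjusted p = 0.19) and -0.67 for Ifit3 (-1.07 to -0.27, adjusted p = 0.13), and neither was called. Both intervals overlapped that of Ifit2 in this comparison (-1.77 to -0.90), whereas Cmpk2 had a difference of 0.27 (-0.13 to 0.67) beside -2.69 to -1.43 for Rsad2.

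Among transcription factors, Irf7, the amplifier of type I interferon production, lay at 7.97 and 7.90 in control, 7.69 and 8.37 in Ovol1 KO, and 7.08 and 7.22 in DKO. Both DKO arrays were below the other 4. The log2 difference against control was -0.78 (SE 0.24, limma adjusted p = 0.18) and that against Ovol1 KO -0.89 (adjusted p = 0.16), so it did not pass. Irf1, which maintains basal expression of many of these genes, lay at 9.21 and 8.85 in control, 9.05 and 9.71 in Ovol1 KO, and 9.49 and 9.90 in DKO. DKO was above control without overlap but overlapped with Ovol1 KO, and the log2 difference against control was 0.66 (SE 0.29, adjusted p = 0.36). A dimmer second probe set of Irf1 had a log2 difference of 0.02. Stat2 and Irf9, whose products act in the type I response, had log2 differences of 0.24 and 0.25.

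Of the sensors of viral nucleic acid, 0 of 4 passed, and all 4 of their 95% intervals lay within a log2 difference of 1 either way. Dhx58, which encodes the RIG-I-like protein LGP2, lay at 6.38 and 6.66 in control, 6.12 and 7.04 in Ovol1 KO, and 6.52 and 6.23 in DKO. Ifih1, which encodes the RNA sensor MDA5, lay at 9.00 and 9.22, 8.78 and 9.64, and 9.06 and 9.04. The arrays of all 3 groups overlapped in both genes, and the Ovol1 KO arrays were the widest apart. Ddx58, which encodes RIG-I, and Zbp1, a sensor of Z-form nucleic acid, had DKO against control differences of -0.02 and 0.01.

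In the ISG15 system, which attaches a ubiquitin-like protein to targets, Trim25, a ubiquitin ligase that activates RIG-I, lay at 10.61 and 10.38 in control, 10.60 and 10.64 in Ovol1 KO, and 10.01 and 9.70 in DKO. Both DKO arrays were below the other 4. Its log2 difference was -0.64 against control (SE 0.18, limma adjusted p = 0.15) and -0.76 against Ovol1 KO (adjusted p = 0.11), and neither passed. Usp18, the protease that removes ISG15 and dampens the receptor, lay at 8.24 and 7.27 in control, 7.98 and 8.21 in Ovol1 KO, and 7.10 and 7.53 in DKO. The control arrays were far apart and spanned DKO 2, with a log2 difference of -0.44 (adjusted p = 0.66).

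Of 5 oligoadenylate synthetase genes, whose products activate RNase L, 0 passed, with log2 differences between -0.05 and 0.16. Oasl2 lay at 7.99 and 7.06 in control, 7.72 and 8.39 in Ovol1 KO, and 7.42 and 7.96 in DKO, and Oas3 at 6.92 and 7.73, 6.84 and 7.88, and 6.99 and 7.56. In both genes the gap between the arrays of a group exceeded the difference between group means. Oas2 was the steadiest of those given, between 6.83 and 7.03 on all 6 arrays. The dynamin-like GTPase genes Mx1 and Mx2 and the kinase gene Eif2ak2, which encodes PKR, had differences of 0.14, 0.01 and -0.11. Mx2 lay between 5.46 and 5.67 on all 6 arrays, below the 5.996 that marks the lowest 10% of values. Its level was not separated from background, so its small difference does not show steady expression. Mx1 lay at 6.31 and 6.46 in control, 6.07 and 6.59 in Ovol1 KO, and 6.45 and 6.61 in DKO, and Eif2ak2 at 9.43 and 9.23, 9.29 and 9.51, and 9.40 and 9.04. Neither gene separated any pair of groups.

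Genes of antigen processing and of the interferon gamma responsive GTPases had differences above 0 in DKO against control, as did 10818 of all 19938 genes, and 0 of 5 passed. Irgm1, an immunity-related GTPase that acts on vacuoles and autophagy, lay at 7.55 and 6.34 in control, 6.98 and 7.47 in Ovol1 KO, and 7.96 and 7.79 in DKO. DKO was above the other 4 arrays, and the log2 difference was 0.93 (SE 0.38, limma adjusted p = 0.33). It was called only without control 1 among the 16 alternatives (1.53, adjusted p = 0.033) and the difference was 0.33 without control 2. The guanylate-binding protein gene Gbp3 lay at 6.85 and 6.30, 6.50 and 7.04, and 6.81 and 7.07, with a difference of 0.36. Tap1, the peptide transporter gene, lay at 9.14 and 10.13, 9.22 and 10.19, and 10.04 and 10.03, with a difference of 0.40 and overlapping groups. The immunoproteasome gene Psmb8 lay at 8.32 and 8.36 in control, 7.79 and 8.69 in Ovol1 KO, and 8.41 and 8.77 in DKO, with a difference of 0.25. Psmb9, its partner subunit gene, had a difference of 0.10. The differences of Gbp3, Tap1 and Psmb8 changed sign in 1, 2 and 1 of their alternatives, with lowest values of -0.20, -0.58 and -0.66.

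Parp9 and Parp14, which encode ADP-ribosyltransferase family proteins, had differences of 0.51 and 0.32. Parp9 lay at 8.46 and 8.18 in control, 8.14 and 9.01 in Ovol1 KO, and 8.96 and 8.71 in DKO, and Parp14 at 7.22 and 7.26, 6.99 and 7.94, and 7.48 and 7.63. In both, DKO was above control without overlap and lay between the Ovol1 KO arrays. Cxcl10, a chemokine gene that recruits T cells, lay at 7.47 and 6.90, 7.37 and 7.50, and 6.59 and 7.42, with overlapping groups and a difference of -0.18 (SE 0.31, limma adjusted p = 0.90). Bst2, which encodes tetherin, lay at 9.41 and 9.05 in control, 9.17 and 9.11 in Ovol1 KO, and 8.37 and 8.94 in DKO. DKO was below the other 4 arrays, with a difference of -0.58 (SE 0.25, adjusted p = 0.36). Ifi27 had the widest gap in the Ovol1 KO group, at 8.27 and 9.50, beside 8.78 and 9.38 in control and 9.48 and 10.18 in DKO, and its difference of 0.75 did not pass (adjusted p = 0.55). Xaf1, which encodes a protein that binds the apoptosis inhibitor XIAP, lay between 6.78 and 7.78 on the 6 arrays (-0.20), Rtp4 between 7.59 and 9.24 (-0.14) and Ifi35 between 9.10 and 9.63 (-0.02), and in all 3 control and DKO overlapped.

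**Figure D3:**
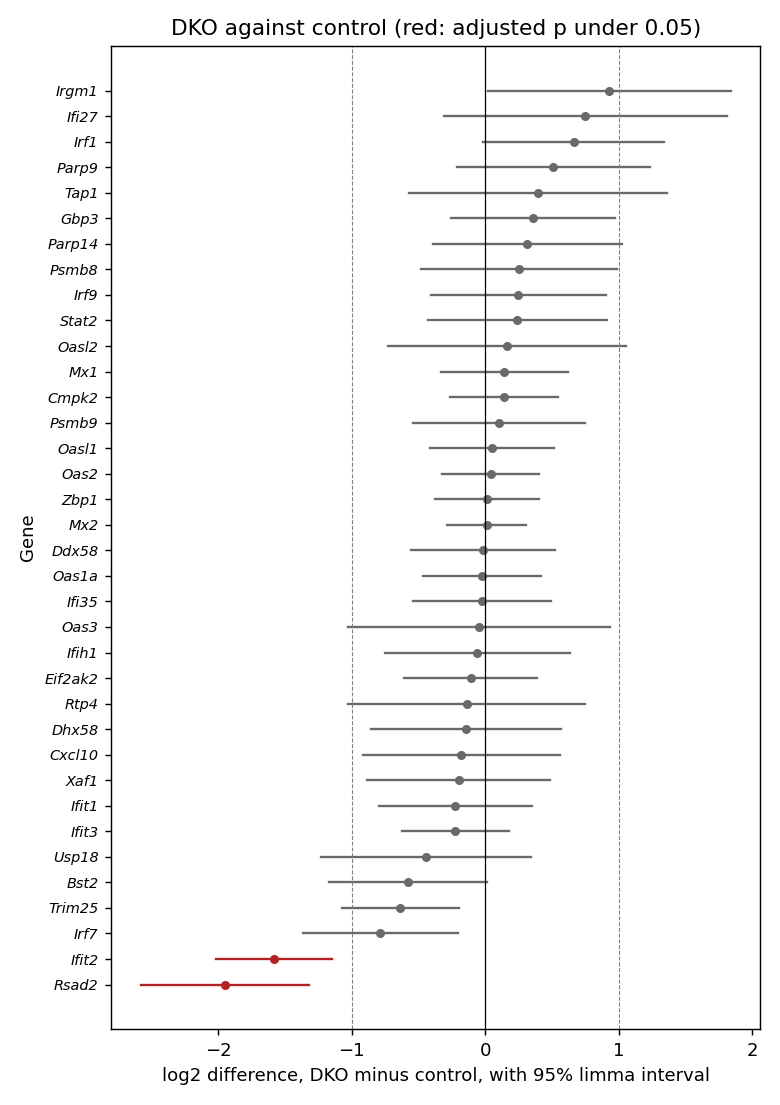
Difference between DKO and control for each of the 36 genes, as log2 with its 95% limma interval; dashed lines mark a log2 difference of 1 either way and red marks the genes called. Only the intervals of Rsad2 and Ifit2 lie wholly beyond -1.

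Counting arrays without a test, 7 of the 36 genes had both DKO arrays above both control arrays (19.4%, against 23.1% of all genes) and 6 had both below (16.7%, against 21.5%). Against Ovol1 KO, both DKO arrays were above in 4 genes (11.1%, against 26.1%) and below in 11 (30.6%, against 16%), and the median difference was -0.10 (all genes 0.09). For the 34 genes not called against control, differences ran from -0.78 to 0.93, and the 95% limma interval of 21 lay within a log2 difference of 1 either way. The intervals of the other 13 reached past 1 in one direction or both, so a difference of that size was not excluded for them.

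Between Ovol1 KO and control, 0 of the 36 genes were called, as were 0 of all genes (0% in either direction). In limma, 2 of the 36 and 162 of all genes had an unadjusted p under 0.05. The median log2 difference was 0.10 (all genes -0.06), and the single values ran from -0.24 for Ifit2 to 0.72 for Rtp4, which encodes a receptor chaperone. Both Ovol1 KO arrays lay above both control arrays in 4 genes (11.1%, against 5.8% of all genes) and below in 2 (5.56%, against 18.3%). Without Ovol1 KO 1 the median was 0.39. With Ovol1 KO 1, the array on the control side in Xist, set alone against control, the median was -0.09.

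Nearly all of these genes shared a gap between the Ovol1 KO arrays. Ovol1 KO 2 was above Ovol1 KO 1 in 35 of 36 genes, with a median gap of 0.47, beside 68.2% of all genes with a median gap of 0.14. The exception was Bst2. On the values as deposited the count was 30 of 36, with a median of 0.36, beside 54.1% and 0.02 over all genes. On that scale the median gap was as large in DKO, at 0.36 with 26 of 36 genes higher in replicate 2 (all genes 0.07 and 55.9%). In control it was -0.10, with 15 of 36 higher (all genes 0.05 and 57.9%). After quantile normalization the gap in Ovol1 KO exceeded 0.5 in 17 of the 36 (47.2%, against 9.49% of all genes). The widest were 1.23 for Ifi27, 1.03 for Oas3, 0.97 for Tap1, 0.95 for Parp14 and 0.94 for Rtp4. Rsad2 and Ifit2 had gaps of 0.00 and 0.03.

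Of the 36 genes, 19 had their highest value of all 6 arrays on Ovol1 KO 2, where 9.68% of all genes were highest. The lowest value was on Ovol1 KO 1 in 14 genes. That is close to the share over all genes (40.7%), so it is not particular to the list. In control the second array was higher in 13 genes (36.1%, against 52.4% of all genes) and in DKO in 26 (72.2%, against 52.6%). The medians were -0.13 and 0.19, beside 0.01 and 0.02 over all genes. The Ovol1 KO arrays also differed in Xist (4.59 and 11.97) and in replicate number, and on replicate 1 arrays melanocyte marker levels were higher: the 7 markers summed to 62.5 and 45.9 log2 units in control, 65.2 and 46.7 in Ovol1 KO, and 53.9 and 44.4 in DKO. Whether any of these took part in the gap was not tested. Over the 36 genes the median gap of 0.47 in Ovol1 KO stands beside a median difference from control of 0.10, though single genes such as Ifit1 and Ifit3 had gaps of 0.14 and 0.15 beside differences of 0.59 and 0.44.

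**Figure D4:**
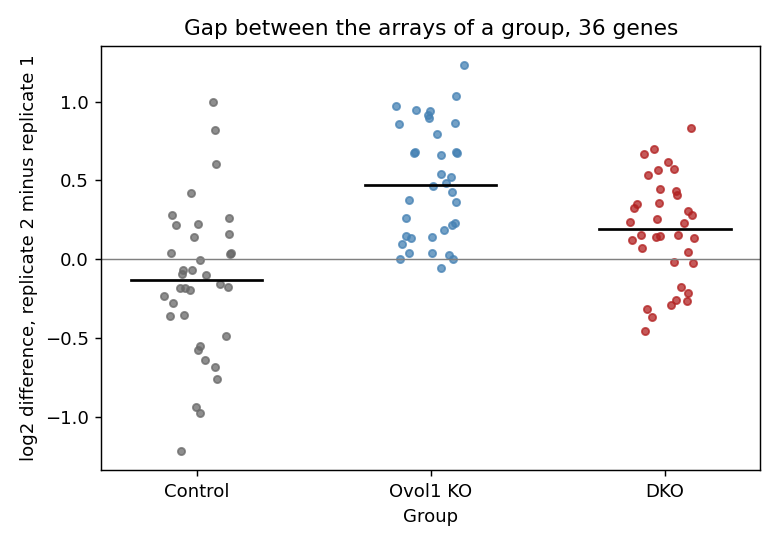
Difference between the replicate 2 and the replicate 1 array of each group for the 36 genes (points), in log2 units, with the median as a line. In the Ovol1 KO group 35 of 36 points lie above 0, with a median of 0.47, whereas control spreads on both sides of 0.

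Upstream of these genes, 1 of 11 measured receptor and JAK-STAT genes rose in DKO against control and 0 fell (0.943% and 2.26% of all genes). Ifngr1, the ligand-binding chain of the interferon gamma receptor, lay at 10.06 and 10.13 in control, 10.01 and 10.39 in Ovol1 KO, and 11.43 and 11.69 in DKO. Both DKO arrays were above the other 4. It rose by a log2 fold change of 1.46 against control (SE 0.19, limma adjusted p = 0.012) and by 1.36 against Ovol1 KO (adjusted p = 0.019). The call against control was lost without DKO 1 (1.61, adjusted p = 0.055) or DKO 2 (1.33, adjusted p = 0.078) and with Xist as a covariate (1.07, adjusted p = 0.61). The call against Ovol1 KO was lost without Ovol1 KO 1 (1.17, adjusted p = 0.14), DKO 1 (1.51, adjusted p = 0.070) or DKO 2 (1.23, adjusted p = 0.12), with Xist as a covariate (1.16, adjusted p = 0.18) and on the same side in Xist (1.17, adjusted p = 0.15). Il10rb, a shared chain of the type III receptor, and Socs3, a feedback inhibitor, had differences of -0.74 and 0.78 and did not pass (adjusted p = 0.15 and 0.17).

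Of 7 measured interferon genes 0 passed, with differences between -0.16 and 0.22, and all 7 of their 95% intervals lay within 1 either way. Ifnb1 lay between 6.23 and 6.75 and Ifnk, the keratinocyte interferon gene, between 6.20 and 6.72 on all 6 arrays. Both were dim, beside medians over all genes of 8.11 to 8.25 per array and a lowest 10% of values below 5.996. Without a detection call their levels were not separated from background, so narrow intervals do not show steady expression. Over all 19938 genes, 2888 had an unadjusted limma p under 0.05 in DKO against control. The counts that follow stand beside that share and are not read as properties of their lists. Of 9 nucleic acid sensing genes 0 were called by limma, while 2 reached an unadjusted p under 0.05: the adaptor gene Myd88 (0.65) and the kinase gene Ikbke (-0.65). Of 5 MHC class I genes 0 passed and 1 had an unadjusted p under 0.05, the immunoproteasome gene Psmb10 (0.72). Psmb10 was the highest of the 5, of which 3 had differences below 0, with a median of -0.07 and a lowest value of -0.32. Of 21 further interferon-stimulated genes 0 passed and 4 had an unadjusted p under 0.05, with a median of 0.02. Those with the smallest p included Sp100, a nuclear body gene, at 7.00 and 7.81 in control, 6.59 and 8.03 in Ovol1 KO, and 8.90 and 9.28 in DKO (1.69, limma adjusted p = 0.15), Isg20, an exonuclease gene, with a difference of -0.69 (adjusted p = 0.14), and Helz2, a helicase gene, with -0.58 (adjusted p = 0.29). Slfn2, a Schlafen family gene, was the other gene with a difference past 1 (1.18, adjusted p = 0.30).

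Among the 26 measured genes with a promoter window, the 13 that held the response element core had a median DKO against control difference of -0.06 (range -1.95 to 0.93) and the 13 without it 0.11 (range -1.58 to 0.66). The 2 genes that fell lie on different sides of this split, as the windows shown above bear out for Rsad2 and Ifit2.

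Markers checked the cells. Of 9 keratinocyte markers 2 rose in DKO against control and 1 fell. The basal keratin genes Krt5 and Krt14 lay between 13.61 and 13.94 on all arrays. The keratin genes of differentiating layers rose, Krt1 by a log2 fold change of 4.15 (limma adjusted p = 0.022) and Krt10 by 4.14 (adjusted p = 0.0035), and the integrin gene Itgb4 fell by 0.79 (adjusted p = 0.030). The summed log2 level of the 9 markers was 107.7 and 107.4 in control, 107.1 and 107.6 in Ovol1 KO, and 117.6 and 114.3 in DKO. The rise of this sum comes almost wholly from Krt1 and Krt10. This difference in keratins of differentiating layers runs along the same arrays as the falls of Rsad2 and Ifit2, and its part in them was not tested. Of 21 leukocyte markers, which cover cells rich in interferon responsive genes, 0 passed between DKO and control in limma. At an unadjusted limma p under 0.05 there were also 0, beside 2888 of all 19938 genes. The summed log2 level of the leukocyte markers ran from 148.4 to 148.8 in control, 144.0 to 148.6 in Ovol1 KO and 147.4 to 149.6 in DKO. Of 7 fibroblast markers 1 fell, Pdgfra by a log2 fold change of 1.06 (adjusted p = 0.031), and of 7 melanocyte markers 1 fell, Kit by 1.43 (adjusted p = 0.035). All 7 melanocyte differences in DKO were negative, with a median of -0.77 against control (all genes 0.02) and -1.16 against Ovol1 KO (all genes 0.09), while the arrays of a group were far apart in most of them. Of 4 endothelial markers 0 passed, with Kdr at a difference of -2.78 (limma adjusted p = 0.090). Their differences were negative in 3 of the 4 and exceeded 1 in size in 2, with a median of -0.57 (all genes 0.02). The summed log2 level of the 4 was 31.5 and 28.7 in control, 30.5 and 28.8 in Ovol1 KO, and 26.4 and 26.1 in DKO. The part of these cells in the results was not tested, and in bulk RNA fewer cells of a type and less RNA per cell cannot be told apart. Ovol1 and Ovol2 each have 1 probe set, and its place relative to the deleted part is not given in the sources used here. Ovol1 ran from 9.85 to 10.59 and Ovol2 from 8.12 to 9.00 across the arrays, so neither checks the labels.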

How the data were processed

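Expression was measured on 6 Affymetrix arrays, 2 in each of 3 groups. The table deposited by the authors holds linear intensities, already summarised to 1 value for each of 35556 probe sets and array. Affymetrix Expression Console 1.1.1 and PLIER 2.0 are named in the submitters' processing notes, and the sources used here give neither background correction nor normalization. Median intensities per array ran from 174.2 to 203.6. Intensities were increased by 16, log2-transformed and quantile-normalized. The 21789 probe sets with 1 gene symbol gave 19938 genes, the brightest being kept per gene. One limma 3.58.1 model in R 4.3.3 had a mean per group, a variance trend, 3 residual and 3.89 prior degrees of freedom and Benjamini-Hochberg adjustment, so all groups share 1 spread. The code was tested on simulated data. The labels call the arrays of a group biological replicates.

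Array values are given for called genes, the 2 with the smallest p per role in DKO against control, and the 3 with the widest gap within a group. Pathway genes were named if called or among the 3 smallest p. Other genes named with single values, such as Ifit1, Rtp4, Ifnb1 and Ifnk, were picked outside this rule with their values in view. The members and lists were chosen with earlier results of these data known. Alternatives were other offsets, the deposited scale, dim genes left out, other eBayes settings, probe set means, fewer arrays, a replicate block and Xist terms.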

Additional observations from a re-analysis of the deposited data

How the results depend on the processing

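Rsad2 and Ifit2 kept a negative difference in DKO under every alternative run, against control and against Ovol1 KO. Rsad2 ran from -2.33 to -1.35 and from -2.42 to -1.44, and Ifit2 from -1.95 to -1.02 and from -1.67 to -0.84. With the dimmest 30% of genes left out, 1 of the 36 genes was called lower in either comparison, because Ifit2 was then among the genes removed. With Xist as a covariate 0 were called lower in either, with medians of -0.49 against control (all genes -0.12) and -0.32 against Ovol1 KO (all genes 0.01), and 8 and 74 of all genes were called. On the same side in Xist, DKO against Ovol1 KO 2 gave 0 lower among the 36 and 88 calls over all genes, where the lone array is assumed to vary like the other groups. From the 4 arrays compared alone, 738 genes were called between DKO and Ovol1 KO.

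With single arrays left out, DKO against control gave 0 to 1 of the 36 higher (Irgm1, without control 1), 1 to 2 lower (1 without DKO 1 or DKO 2) and 261 to 733 calls over all genes. DKO against Ovol1 KO gave 0 to 2 lower, 88 to 736 calls over all genes and medians of the 36 from -0.32 to 0.20, the lowest without Ovol1 KO 1 and the highest without Ovol1 KO 2. Ovol1 KO against control gave 0 to 4 calls over all genes and medians from -0.093 to 0.39.

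The replicate number was tried as a block. Deviations from the group means correlated over all genes at 0.687 between control and Ovol1 KO arrays of the same number, 0.151 between control and DKO, and 0.087 between Ovol1 KO and DKO, and with only 2 numbers they were not taken as pairs. The replicate block gave 1069 calls over all genes in DKO against control and 805 against Ovol1 KO, with 2 of the 36 lower in each, and changed no call of a gene followed through the alternatives. Signal over background could not be judged for dim genes.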
